A study of Mus musculus with 221 samples.

Results

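Blood emerges in the embryo when hemogenic endothelium (HE), a vessel lining that still carries endothelial genes, turns into round blood progenitors. The 9 genes described here, Kit, Cd44, Itga2b, Itgb3, Ptprc, Procr, Cd24a, Cd47 and Ace, encode cell-surface proteins that are used to recognise and sort cells along this change. They were taken by gene symbol from a table of 78317 genes, and their 63 annotated transcripts from 278369. Complementary DNA (cDNA) of single sorted mouse cells had been sequenced as long nanopore reads, in which 1 read can cover a whole transcript, and the authors deposited an estimated count of each transcript in each cell. Gfi1-GFP and Runx1b-RFP reporter embryos were used. Cells of the aorta-gonad-mesonephros region (AGM), inside the embryo, were sorted at E9.5 and E10.5 as RUNX1+, KIT-, CDH5+, GFI1+ or GFI1-, CD41- and CD45-. Yolk sac (YS) cells were sorted at E9, E9.5 and E10.5 as RUNX1+, KIT+, GFI1+ or GFI1-, CD31+, CD41- and CD45-.

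The labels place the cells in 9 clusters. HE AGM consisted of an early cluster c3 and a late cluster c4, HE YSA of a1 and a2, and HE YSP of b2 and b3. Beyond the late HE stood c5, labelled as embryo cells of the type HE-Hb, whose gate the labels do not give. The clusters p1 and p2 are labelled as progenitors of the YS. The 208 cells with at least 17595 counts were used and 13 were left out: 29 of c3, 20 of c4, 21 of c5, 23 of a1, 29 of a2, 17 of p1, 25 of b2, 24 of b3 and 20 of p2. No embryo is named for a cell, so each cluster counts as 1 sample. Differences between clusters therefore have no replicate check and no test, and the intervals given are 95% exact intervals of counting error only. The gates act on proteins that Kit, Itga2b (CD41) and Ptprc (CD45) encode, and Kit was gated the opposite way in the AGM and the YS.

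A gene's level is given as CPM, its summed count over the cells of a group per 1000000 counts of those cells. Cells of HE AGM held 30323 to 125339 counts, with a median of 59311. Those of HE YSA held 18543 to 71389 (median 34484), and those of HE YSP 18131 to 84052 (median 33297). Apart from 1 cell of a1, which shares a cDNA project with some cells of c3, the YS cells came from another cDNA project than the AGM cells, so that tissue and cDNA project cannot be told apart. AGM libraries also held more long transcripts: those of 4000 bases or more took 7.08% of the counts of HE AGM, but 2.84% for HE YSA and 2.72% for HE YSP. Of 13 endothelial markers, 11 to 13 were detected in each HE cluster, and likewise 11 to 13 in c5, p1 and p2. Mcam had no counts in a2 and b3, and Sox17 none in b3. Their summed levels were 1888 to 5494 CPM in the HE clusters, against 630 to 1010 CPM in c5, p1 and p2. Blood markers summed to 434 to 1409 CPM in the HE clusters and to 1824 to 2059 CPM in c5, p1 and p2. Among 3 YS-labelled cells with another library name, 1 of a1 is named for a sort on ACE from the AGM and had 0 Ace counts. Another, of a2, is named for Gfi1 from the AGM. Both came from the cDNA project of the YS cells.

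All 9 genes were detected, though unevenly. Procr had 2093 counts in 137 of 208 cells, Cd47 2292 in 179, Kit 1246 in 130, Cd24a 1052 in 87, Itgb3 978 in 73 and Cd44 691 in 123. Itga2b had 220 counts in 52 cells, Ptprc 36 in 14 and Ace 20 in 5. A cell of HE AGM held a median of 6 of the 9 genes at 1 count or more, one of HE YSA 4 and one of HE YSP 3. With each cell set to 17595 counts the expected means were 4.50, 3.25 and 2.81 genes, in the same order.

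**Figure D1:**
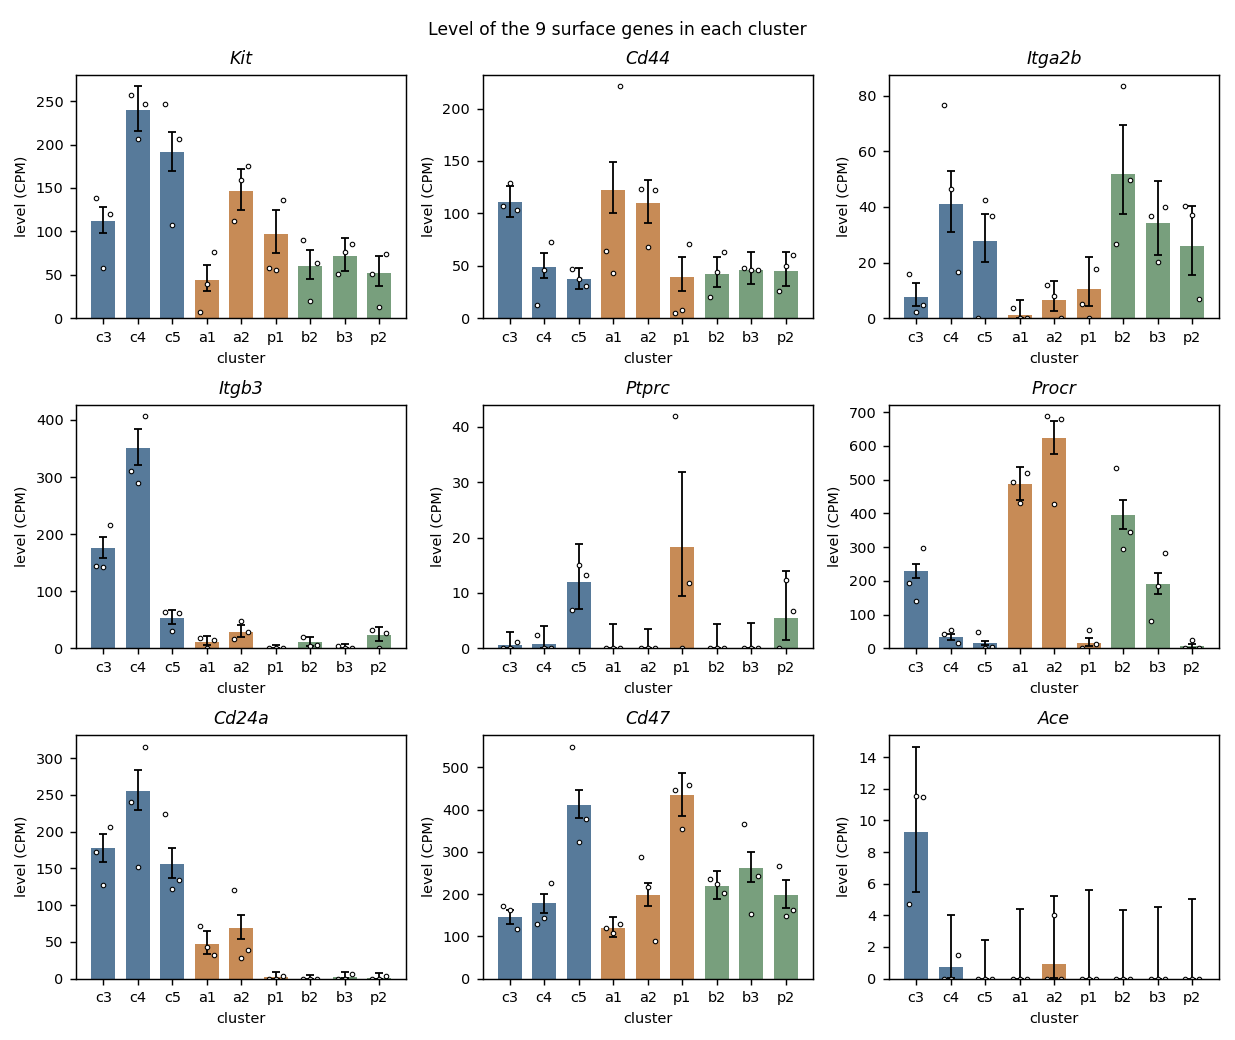
Level of each gene in CPM (y axis, from 0) in the 9 clusters (x axis), with AGM clusters in blue, the YSA series with p1 in orange and the YSP series with p2 in green. Bars are summed counts of all cells, error bars 95% Poisson counting intervals and circles the 3 nanopore runs; Itgb3 and Cd24a stand highest in c3 and c4, Procr in a1 and a2, Ptprc in c5 and p1, and Ace in c3.

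Kit encodes the receptor tyrosine kinase of stem cell factor, needed for blood progenitors to survive and expand, and is among the genes of the gate. Its level was 112 CPM in c3, 240 in c4 and 191 in c5, then 44.0 in a1, 146 in a2 and 97.5 in p1, and 59.9 in b2, 71.9 in b3 and 51.9 in p2. In single cells it ran from 0 to 508 CPM (median 51.6) in c3 and from 38.3 to 740 CPM (median 227) in c4, where all 20 cells had it. In a1 10 of 23 cells had it and in a2 19 of 29. Kit was thus detected in more cells of the AGM, which had been sorted as KIT-, than of the YS, which had been sorted as KIT+: 40 of 49 in HE AGM, against 29 of 52 in HE YSA and against 22 of 49 in HE YSP. The expected shares at 17595 counts per cell were 69.7%, 47.5% and 39.2%. Over the summed cells HE AGM stood 1.64-fold above HE YSA (log2 0.71, interval 0.47 to 0.96) and 2.52-fold above HE YSP (log2 1.33, interval 1.04 to 1.64), with the same direction in all 3 runs. Within HE YSP Kit was 28.7 CPM at E9, 122 at E9.5 and 60.0 at E10.5. By library name it was 126 CPM in 13 cells named for Gfi1 and 44.5 in 36 named for Runx1. Against cells of E9.5 or named for Gfi1, the 166 CPM of HE AGM were less than 2-fold higher.

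Length moves with the Kit difference between HE AGM and the YS. Genes within 1.2-fold of Kit's mean transcript length of 4806 bases had a median log2 ratio of 1.23 for HE AGM over HE YSA (993 genes) and 1.33 over HE YSP (989 genes). Kit's own ratios lay at the 28.8th and the 50.8th percentile of those genes. The part of transcript length in the Kit difference was not tested. Within each tissue, Kit rose 2.14-fold from c3 to c4 (log2 1.10, interval 0.84 to 1.35) and 3.33-fold from a1 to a2 (log2 1.73, interval 1.21 to 2.29), in each of the 3 runs, while the log2 ratio of b3 over b2 was 0.26 (interval -0.30 to 0.83).

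The full-length coding transcripts of Kit differ in a short stretch of the coding part, shown because these are the forms known to differ in the membrane-near part of the receptor. The capitals mark the 12 bases that Kit-201 has and Kit-204 lacks. Sequences are from GENCODE M21 transcripts of the mouse, which matched all 63 identifiers and lengths.
Kit-201: catttaaagGTAACAACAAAGagcaaatcc
Kit-204: catttaaagagcaaatcc
The estimated counts of the 2 transcripts were equal within 1e-06 in each of the 128 cells that had either, so that the forms with and without the stretch cannot be told apart in this table. Together they took 88.3% of Kit counts in HE AGM, compared with 74.5% in HE YSA and with 80.6% in HE YSP. The remainder lay on 6 retained-intron transcripts, at 11.7% (9.04% to 14.6%), 25.5% (19.4% to 32.1%) and 19.4% (12.2% to 27.7%). In HE YSA that share ranged from 12.1% in run 3 to 42.0% in run 2, so the difference from HE AGM was not the same in every run.

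Cd44, the receptor for hyaluronan, had 110 CPM in c3, 48.9 in c4 and 37.1 in c5, with 123 in a1, 110 in a2 and 39.6 in p1. In the YSP series it stayed between 42.3 and 46.3 CPM. Its ranges in single cells overlapped throughout, from 0 to 459 CPM (median 84.3) in c3 and from 0 to 468 CPM (median 78.4) in a1. HE AGM was 1.36-fold below HE YSA (log2 -0.45, interval -0.71 to -0.19), with run 2 going the other way. HE YSA was 2.61-fold above HE YSP (log2 1.38, interval 1.00 to 1.78) and higher in all 3 runs. From c3 to c4 Cd44 fell by 1.17 on the log2 scale, from a2 to p1 it fell by 1.47, and both steps had the same direction in every run. In p1, however, runs 1 and 2 held 1 Cd44 count each and run 3 held 24. The log2 ratio of p1 over a2 was -0.79 in run 3.

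Itga2b and Itgb3 encode the alpha and beta chains that pair as the platelet fibrinogen receptor, and CD41, the product of Itga2b, appears early on blood-fated cells. Itgb3 was high in the AGM, with 176 CPM in c3, 352 in c4 and 53.7 in c5. It was 11.9 CPM in a1, 28.2 in a2, 10.6 in b2, 1.22 in b3 and 23.2 in p2. In p1 it had 0 counts in 17 cells, which allows a level of up to 4.57 CPM. In c4 19 of 20 cells had it, at a median of 359 CPM, against 7 of 29 in a2 and 1 of 24 in b3. HE AGM stood 11.9-fold above HE YSA (log2 3.57, interval 3.11 to 4.07) and 41.7-fold above HE YSP (log2 5.38, interval 4.50 to 6.45). The level of HE YSP rests on 10 counts, 6 of them in 1 cell, and was 2.44 CPM without that cell, against 5.98 with it. Genes within 1.2-fold of its mean transcript length had medians of 1.33 and 1.39 on the same log2 scale, and Itgb3 lay at the 93.5th and 98.9th percentile of those 658 genes. From c4 to c5 it fell 6.55-fold (log2 -2.71, interval -3.07 to -2.37).

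Itga2b went another way. It had 7.74 CPM in c3, 41.0 in c4 and 27.8 in c5, but 1.19 in a1, 6.57 in a2 and 10.7 in p1. In the YSP series it was 51.7 CPM in b2, 34.1 in b3 and 25.9 in p2. HE YSA stood 10.3-fold below HE YSP (log2 -3.36, interval -4.62 to -2.30), and HE AGM was 5.15-fold above HE YSA (log2 2.36, interval 1.31 to 3.63). The ratio of HE AGM to HE YSP was 1.99-fold in favour of HE YSP (log2 -0.99), just short of 2-fold, with run 1 going the other way. The level of HE YSA rests on 8 counts and was 1.60 CPM without its highest cell, against 4.20 with it, which moves both folds by over 1.5 times. A single cell held 47.4% of the counts of c4, and without it the level there was 22.4 CPM. Likewise b3 fell to 19.1 CPM without its highest cell. Within HE YSP the level differed by stage, at 97.1 CPM (70.5 to 130) in 16 cells of E9, 46.8 (27.7 to 73.9) in 13 of E9.5 and 12 (5.75 to 22.1) in 20 of E10.5. By library name it was 57.5 CPM in 36 cells named for Runx1 and 2.29 CPM (0.058 to 12.8) in 13 named for Gfi1. Of the 52 cells of HE YSA, 46 were named for Gfi1, at 4.59 CPM (1.98 to 9.05). The YS populations thus differed in library name as well. Among cells named for Gfi1 the fold between them was not seen, on 8 counts in HE YSA and 1 in HE YSP. All 8 counts of HE YSA lay in cells of E9.5. With YS cells of E10.5 alone, Itga2b was higher in HE AGM than in HE YSP (log2 0.85). Pf4, a platelet chemokine of the megakaryocyte and platelet marker list, had 2.40 CPM in HE AGM, against 2.62 in HE YSA and against 43.7 in HE YSP, and 29.1, 4.57 and 8.19 CPM in c5, p1 and p2. Treml1 had 21 counts in b3 and 53 in p2, and 2 in all other clusters together. Gp9 had 0 to 25.9 CPM per cluster. Gp5 and Gp6, of the same marker list, had no counts in any cluster, with limits of 1.55 to 4.57 CPM. The part of these markers in the Itga2b values was not tested.

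Counts of both chains were met in the same cell in the AGM and not in HE YSP. Itgb3 itself was detected in 40 of 49 cells of HE AGM and in 4 of 49 of HE YSP. Whether the chains met more or less often than their separate detection would give was not tested. All 16 cells of HE AGM with Itga2b also had Itgb3, and a further 24 had Itgb3 alone. In HE YSP 16 cells had Itga2b and 4 had Itgb3, and 0 of 49 had both, which allows a share of up to 6.12%. In HE YSA 2 of 52 cells had both. The share with both was 32.7% (19.9% to 47.5%) in HE AGM, or 17.3% at 17595 counts per cell. By cluster it was 5 of 29 in c3, 11 of 20 in c4, 8 of 21 in c5 and 3 of 20 in p2. A count of 0 limits cells with a detected count, not cells that express the gene.

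**Figure D2:**
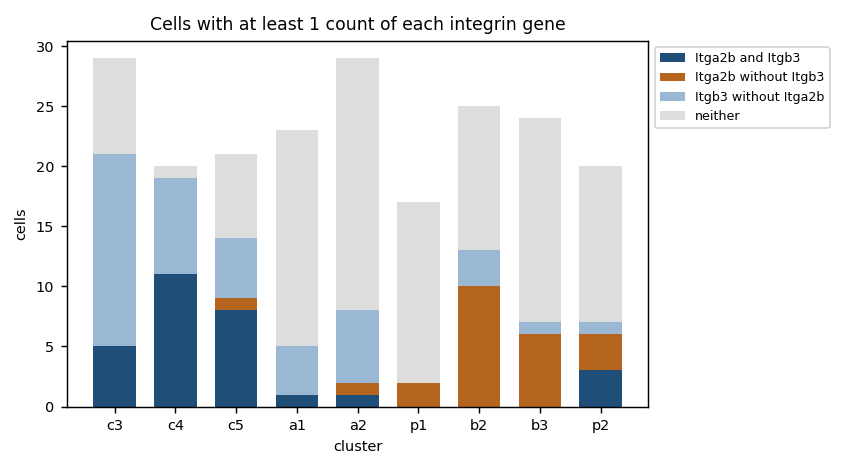
Number of cells (y axis) in each cluster (x axis) that had at least 1 count of both integrin genes, of 1 of them or of neither. Most cells with both stand in c3, c4 and c5 (5, 11 and 8 cells), while the 16 Itga2b cells of b2 and b3 had no Itgb3 count.

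Cd24a encodes a small, heavily glycosylated protein anchored in the membrane. The study chose it as a marker of the YSA series from short reads of the same cDNA, so its difference between the YS populations is no independent evidence. It had 177 CPM in c3, 255 in c4 and 156 in c5. In a1 it had 47.6 CPM and in a2 68.5, but only 1.52 in p1, 1 count. In b2 there were 0 counts, which allows up to 3.53 CPM, in b3 2 counts and in p2 1. HE AGM was 3.54-fold above HE YSA (log2 1.82, interval 1.54 to 2.12), in all 3 runs. Of the cells of HE YSA, 27 of 52 had it, against 42 of 49 in HE AGM and 1 of 49 in HE YSP. Genes of like length had a median log2 ratio of 0.12 for HE AGM over HE YSA.

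Ptprc encodes CD45, the phosphatase carried by nearly all blood cells except red cells, and cells with the protein had been gated out of the HE sorts. It had 18 counts in c5 (11.9 CPM, 7.07 to 18.8), 12 in p1 (18.3 CPM, 9.44 to 31.9) and 4 in p2 (5.46 CPM, 1.49 to 13.98). HE AGM had 2 counts in 49 cells. HE YSA and HE YSP had 0, which allows up to 1.57 and 1.79 CPM. A single cell gave 58.3% of the counts of p1, where the level was 7.92 CPM without it. In c5 6 of 21 cells had Ptprc, and all 6 had Kit as well, but Kit was detected in 20 of the 21 cells. In p1 2 of the 4 cells with Ptprc had Kit, and in p2 1 of 2. In c5 its counts lay mainly on 3 coding transcripts, Ptprc-203, Ptprc-204 and Ptprc-207, which had equal values in all 7 cells that had them and cannot be told apart.

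Procr encodes the endothelial protein C receptor, known both on vessels and on stem cells. It was high in the YS HE, with 487 CPM in a1, 624 in a2, 396 in b2 and 191 in b3, and lower in the AGM, with 228 in c3 and 32.4 in c4. It was low beyond the HE, at 15.2 CPM in c5, 16.8 in p1 and 5.46 in p2. In single cells it ran from 0 to 1091 CPM (median 672) in a1, from 0 to 2327 CPM (median 364) in a2 and from 0 to 148 CPM (median 21.7) in c4, so that c4 lay below the median of a1 in each of its 20 cells. HE AGM was 3.84-fold below HE YSA (log2 -1.94, interval -2.10 to -1.79) and 2.02-fold below HE YSP (log2 -1.01, interval -1.19 to -0.83), just past 2-fold. All 3 runs gave the same direction in both.

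Stage and Procr moved together in HE YSA. Its level was 757 CPM (710 to 807) in 33 cells of E10.5 and 134 CPM (104 to 171) in 14 cells of E9.5, against 147 CPM in HE AGM. With YS cells of E9.5 alone, HE AGM over HE YSA was 0.13 on the log2 scale. The step from a1 to a2 also went by stage, at 686 and 799 CPM in cells of E10.5 and at 204 and 39.2 CPM in 7 cells of each cluster at E9.5. In HE YSP the level was 274 to 312 CPM at all 3 stages. The labels give no stage for most AGM cells, so a comparison at equal stage was not made.

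From early to late HE, Procr fell 7.06-fold in the AGM (log2 -2.82, interval -3.30 to -2.38) and 2.07-fold from b2 to b3 (log2 -1.05, interval -1.33 to -0.77). The call from b2 to b3 is only just past 2-fold. It was lost without run 1, in runs 2 and 3 alone (log2 -0.68 and -0.29), in cells of E10.5, in cells named for Gfi1, without the highest cell of each cluster, with no limit on library size, without pseudogenes and ribosomal protein genes in the total and with protein-coding transcripts alone. From a1 to a2 it was 1.28-fold higher (log2 0.36, interval 0.18 to 0.54), with run 2 at -0.02. From the late HE to the progenitors it fell 37.2-fold from a2 to p1 (log2 -5.22, interval -6.23 to -4.37) and 35.0-fold from b3 to p2 (log2 -5.13, interval -7.02 to -3.75). The progenitor levels rest on 11 counts in p1 and 4 in p2, and without the highest cell they were 9.45 and 1.43 CPM. The step from c4 to c5 was a fall of 1.09 on the log2 scale, opposite in run 1. The endothelial marker list moved with Procr, from 3897 CPM in c3 to 1888 in c4 and 630 in c5, and from 2434 in a2 to 1010 in p1. It fell from 4797 in a1 to 2434 in a2, where Procr did not fall. Its part in the Procr values was not tested.

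Cd47, a broadly expressed protein that protects cells from being engulfed, was 145 CPM in c3, 178 in c4 and 411 in c5. In the YSA series it was 120 CPM in a1, 197 in a2 and 434 in p1, and in the YSP series 220 in b2, 262 in b3 and 198 in p2. All 21 cells of c5 had it, from 54.1 to 758 CPM with a median of 441, as did 16 of 17 in p1 with a median of 404. In c4 the highest cell reached 310 CPM. It rose 2.32-fold from c4 to c5 (log2 1.21, interval 1.00 to 1.43) and 2.20-fold from a2 to p1 (log2 1.14, interval 0.88 to 1.40), in every run. From b3 to p2 the log2 ratio was -0.40 (-0.72 to -0.09). HE AGM and HE YSA differed little (log2 -0.04, interval -0.25 to 0.17), and the runs did not share a direction.

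**Figure D3:**
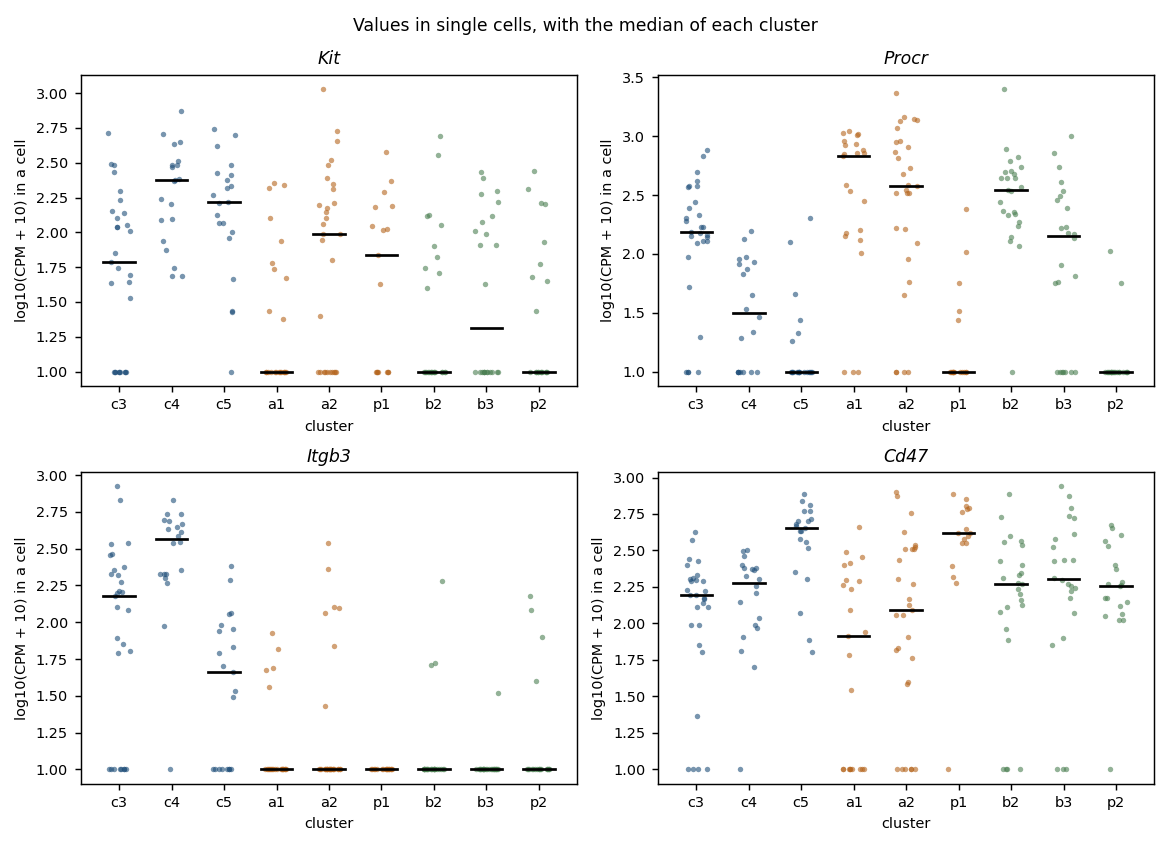
Values of Kit, Procr, Itgb3 and Cd47 in single cells (points), as log10 of CPM plus 10 (y axis), by cluster (x axis); black lines are medians and points at 1 are cells with 0 counts. Procr is at 0 in most cells of c5, p1 and p2, and Itgb3 in most YS cells, while Cd47 medians are highest in c5 and p1.

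Ace, angiotensin-converting enzyme, marks pre-hematopoietic cells in other settings, but here it was barely sampled. It had 18 counts in 3 of 29 cells of c3 (9.28 CPM, 5.50 to 14.7), 1 count in c4 and 1 in a2. No other cluster had a count, with limits of 1.99 to 4.57 CPM. A single cell gave 55.6% of the c3 counts. Its ratio of HE AGM over HE YSA, log2 3.44 (interval 0.79 to 8.82), rests on 20 counts.

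Between the HE populations a gene was called where its CPM ratio passed 2-fold and the groups together had at least 20 counts. Of 8 genes with enough counts, 4 were higher in HE AGM than in HE YSA (Itga2b, Itgb3, Cd24a and Ace) and 1 lower (Procr). Of all 11960 genes, 32.6% were higher and 13.3% lower. Against HE YSP, 3 of 7 were higher (Kit, Itgb3 and Cd24a) and 1 lower (Procr), where 34.9% of all genes were higher and 14.5% lower. Kit stayed under 2-fold against HE YSP cells of E9.5 and against those named for Gfi1. Between the YS populations 3 of 7 were higher in HE YSA (Cd44, Itgb3 and Cd24a) and 1 lower (Itga2b), beside 12% and 9.66% of all genes. The call of Itgb3 was lost among cells named for Gfi1, at 22.4 CPM in 46 cells of HE YSA and 22.9 in 13 of HE YSP, while 36 cells of HE YSP named for Runx1 had 0 counts. In the same cells named for Gfi1, Itga2b had 8 counts in HE YSA (4.59 CPM) and 1 in HE YSP (2.29 CPM), too few for a call. With so few genes, the counts of higher genes in HE AGM stand close to the background shares. The median log2 ratio of the members was 1.27 for HE AGM over HE YSA and 0.94 over HE YSP, beside 0.32 and 0.39 over all genes. These 2 comparisons share the AGM cells. The medians over all genes are not matched for transcript length. Over HE YSA, genes of like length had medians of 1.33 for Itgb3, 1.23 for Kit, 1.16 for Cd44 and 1.06 for Ace. For Itga2b the like-length median was 0.70, for Cd47 0.25, for Cd24a 0.12 and for Procr -0.26. The part of length in the members' medians was not tested.

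**Figure D4:**
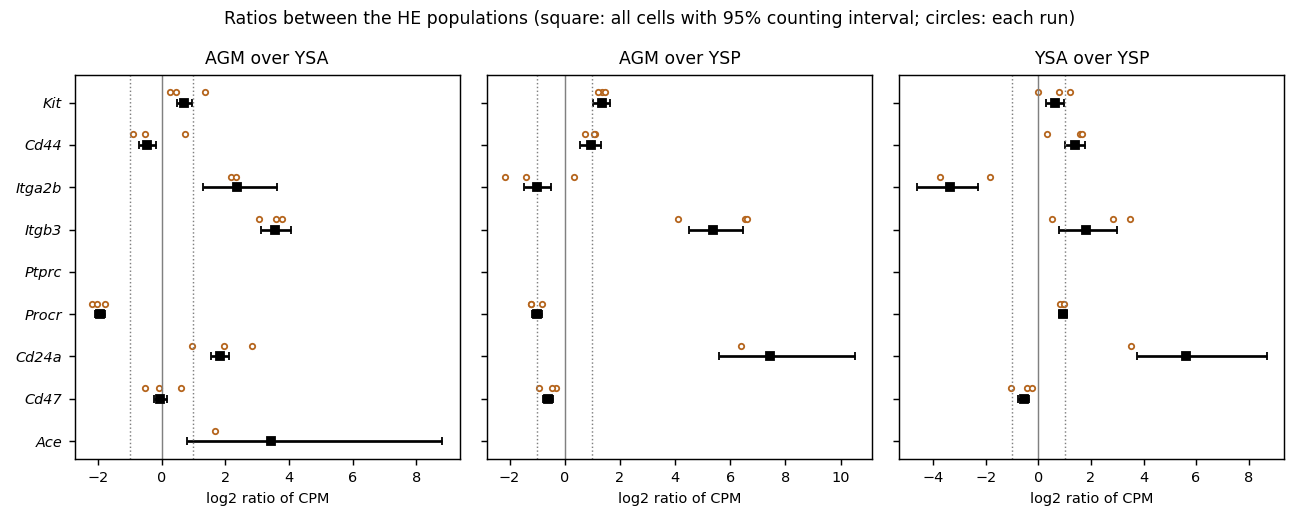
Log2 ratio of CPM (x axis) of each gene (y axis) between the HE populations, with 95% counting intervals; circles are the 3 nanopore runs and dotted lines mark 2-fold. Itgb3 and Cd24a stand above 2-fold in HE AGM over both YS populations, and Procr below; genes with under 20 counts are left blank.

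From early to late HE 2 of 7 genes rose in the AGM (Kit and Itga2b) and 2 fell (Cd44 and Procr), where 9.2% of all genes rose and 17.6% fell. Itgb3 stood at 2.00-fold (log2 1.00), just under the limit. In the YSA series 2 of 6 rose (Kit and Itgb3, the latter on 40 counts and with run 1 going the other way) and 0 fell, beside 11.6% and 11.9%. In the YSP series 0 of 5 rose and 1 fell (Procr), beside 13.6% and 13.1%. Beyond the late HE, 1 of 7 rose from c4 to c5 (Cd47) and 2 fell (Itgb3 and Procr), where 10.3% of all genes rose and 15.7% fell. From a2 to p1 1 of 6 rose (Cd47) and 4 fell (Cd44, Itgb3, Procr and Cd24a), beside 10.7% and 16.6%. Itgb3 fell at least 6.17-fold there and Cd24a went from 73 counts to 1 (log2 -5.49, interval -10.82 to -2.97). From b3 to p2 0 of 5 rose and 1 fell (Procr), beside 8.47% and 12.7%. Between the progenitors 1 of 4 was higher in p1 than in p2 (Cd47, log2 1.13, interval 0.84 to 1.43) and 1 lower (Itga2b), beside 9.48% and 9.75%. That Itga2b call rests on 7 counts in p1 and 19 in p2, and run 3 went the other way. Without its highest cell p1 was at 1.69 CPM, against 10.7 with it.

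The order of the 9 clusters was not resolved at most steps. Of 8 neighbours in the order, the ranges over the runs overlapped at all 8 for Kit, Cd44, Itga2b, Ptprc and Cd47, at 7 for Procr and Ace, at 6 for Cd24a and at 5 for Itgb3. Kit ran from c4, c5, a2, c3, p1, b3, b2 and p2 to a1. Procr ran from a2, a1, b2, c3, b3, c4, p1 and c5 to p2.

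Transcripts of Cd47 and Cd44 were used unequally. Among genes with at least 50 counts in both groups, a transcript's share of the gene's counts differed by over 0.1 (10 percentage points) between HE AGM and HE YSA for 2 members of 5, Cd44 and Cd47. Of all 3339 genes with 2 or more transcripts, 58.6% did. Against HE YSP the same 2 of 5 did, beside 55.9%, and between the YS populations 1 of 4, Cd44, beside 25.2%. Shares near or below those of all genes mark nothing particular to the members.

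Cd47-201, of 5250 bases with a 3′ untranslated region of 4133 bases, took 29.7% of Cd47 counts in HE AGM (25.9% to 33.8%), compared with 5.79% in HE YSA (3.47% to 8.99%) and with 4.23% in HE YSP (2.48% to 6.68%). It took 25.98% in c3, 34.01% in c4 and 33.5% in c5, but 4.56% in p1 and 2.07% in p2. In HE AGM the runs gave 20.5% to 37.1%, and in HE YSA and HE YSP no run exceeded 8.86%. In human cells the long untranslated region of CD47 is known to help bring the protein to the cell surface. Cd44-201 and Cd44-207, each with 2992 bases of 3′ untranslated region, took 63.1% of Cd44 counts in HE AGM (57.2% to 68.8%), against 22.7% in HE YSA (17.4% to 28.8%) and against 31.1% in HE YSP (20.8% to 42.9%). In c5 they took 66.1% and in p1 0 of 26 counts. Cd44-202 and Cd44-203, with 1603 and 1586 bases, took the larger part in HE YSA, 65.5% against 31.2% in HE AGM.

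Long transcripts were favoured in the AGM libraries in general. Among 834 genes with an annotated transcript of 4000 bases or more and a shorter one, 36.6% had a share in the long ones that was higher by over 0.1 in HE AGM than in HE YSA, with a median difference of 3.95 percentage points, and 33.4% of 694 genes against HE YSP, with a median of 3.65. The differences of Cd44 were 40.4 and 32.0 percentage points and those of Cd47 23.9 and 25.5. Tissue, cDNA project and library length cannot be told apart in them. Within the YS, the long transcripts took 32.0% of 103 Cd44 counts in a1 (23.2% to 42.0%) and 14.5% of 117 in a2 (8.70% to 22.2%). They took 44.4% of 36 counts in b2 (27.9% to 61.9%) and 18.4% of 38 in b3 (7.74% to 34.3%), whose intervals overlap.

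**Figure D5:**
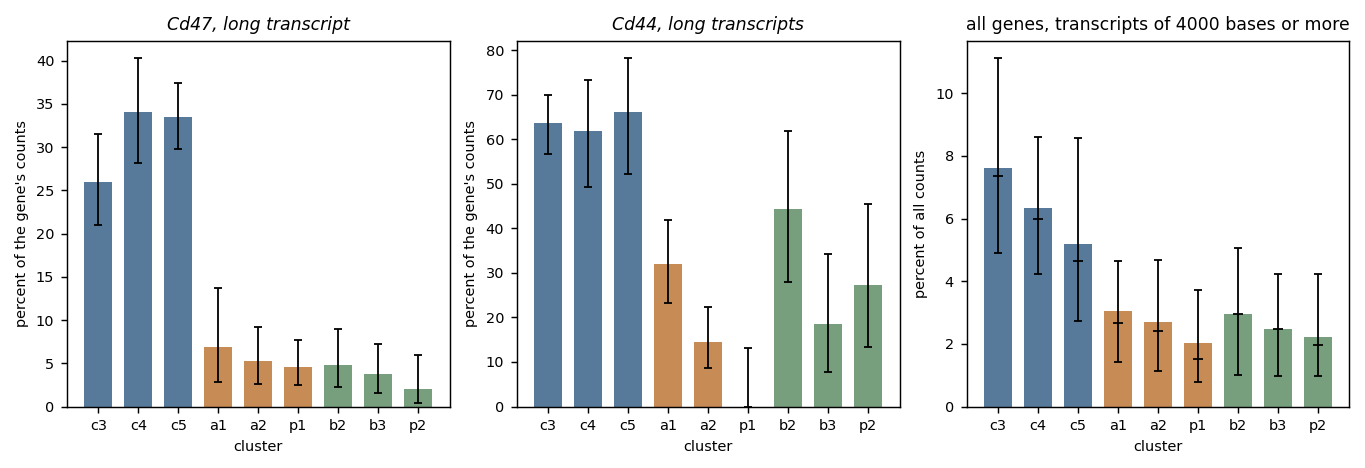
Percent of the counts of Cd47 on Cd47-201 and of Cd44 on Cd44-201 and Cd44-207 (y axes) in the 9 clusters (x axes), with 95% binomial intervals, beside the percent of all counts on transcripts of 4000 bases or more, where bars are summed counts and lines span the lowest, median and highest cell. All 3 measures are higher in c3, c4 and c5 than in the YS clusters.

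Cd44 transcripts also differ by inserted exons of the extracellular part. The sequences show where they separate, in lower case for the shared bases and in capitals for the start of the extra stretch. It has 483 bases in Cd44-201 and 645 in Cd44-202. Cd44-201 has a second extra stretch, of 126 bases, which is not shown.
Cd44-201: tggccaccaTTGCCTCAA
Cd44-207: tggccaccaatatagaca
Cd44-202: tggccaccaCTCCTAATA
Cd44-203: tggccaccagagatcgag
Cd44-201 and Cd44-207 had equal values in all 62 cells with either, so the stretches of 483 and 126 bases were not resolved. Cd44-203, the form that lacks the 645 bases, took 3.77% of Cd44 counts in HE AGM (1.96% to 6.87%), compared with 27.97% in HE YSA (22.3% to 34.6%) and with 25.7% in HE YSP (16.2% to 37.2%). Cd44-202, which has them, took 27.4%, 37.5% and 27.03%. All are shares of Cd44 counts that include the long Cd44-201 and Cd44-207, which took 63.1%, 22.7% and 31.1%. Shares among the shorter transcripts alone were not computed, and the part of library length was not tested.

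The coding part of Cd47 ends in 4 ways, which decide the tail inside the cell. The last 30 coding bases are shown with the stop codon in capitals, for 1 transcript of each kind.
Cd47-201: aggactatccaacctcctaggaataggTGA
Cd47-204: gctgtagaggaaccccttaacggtatgTGA
Cd47-203: aaagctgtagaggaaccccttaacgaaTAG
Cd47-205: gagtcaaaaggaatgatgaatgacgaaTAG
The ending of Cd47-201, shared with Cd47-202, Cd47-206 and Cd47-209, took 63.9% of the counts with a defined ending in HE AGM (59.5% to 68.2%), against 50.1% in HE YSA (43.9% to 56.1%) and against 51.7% in HE YSP (46.4% to 57.0%). Without Cd47-201 itself the shares were 46.6%, 46.6% and 49.2%, and their intervals overlapped. The other endings therefore held like shares of the shorter transcripts, at 25.8%, 21.9% and 19.98% for that of Cd47-204, 16.2%, 17.4% and 16.9% for Cd47-203, and 11.5%, 14.1% and 13.9% for Cd47-205.

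The remaining members used 1 main transcript where depth allowed. Cd24a-201 took 99.7% of Cd24a counts in HE AGM and 96.5% in HE YSA. Itgb3-201 took 98.1% in HE AGM. Itga2b-201, the coding form, took 75.0% in HE AGM and 78.5% in HE YSP, on 72 counts each. Procr-201 took 68.7% of Procr counts in HE AGM, compared with 62.7% in HE YSA and with 70.4% in HE YSP, and the short Procr-202 17.5%, 25.03% and 25.9%. The retained-intron Procr-204 took 11% in HE AGM, against 11.97% in HE YSA and against 3.67% in HE YSP, but 0% in run 2 of HE AGM.

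Of the ligands, partners and matrix genes of these proteins, 29 genes, 12 had enough counts in HE AGM and HE YSA, and 4 were higher in HE AGM and 0 lower, where 32.6% and 13.3% of all genes were. The count of higher genes is thus near the background. Fn1, fibronectin, a ligand of integrins, had 1647 CPM in HE AGM, compared with 603 in HE YSA and with 63.5 in HE YSP, and fell from 1348 CPM in c4 to 309 in c5 and from 539 in a2 to 22.8 in p1. Hmmr, a further hyaluronan receptor, had 25.2 CPM in HE AGM, against 3.80 in HE YSA and against 0.598 in HE YSP. F2r, the thrombin receptor that works with Procr, had 388, 297 and 184 CPM and fell to 78.8 CPM in c5. Kitl, the ligand of Kit, had no counts in HE YSA or HE YSP, which allows up to 1.57 and 1.79 CPM. It had none in c5, p1 and p2 either, and was counted in c3 and c4. Ptpn6, a phosphatase of blood cells, rose from 125 CPM in a2 to 292 in p1 (log2 1.23).

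Among 25 other surface genes of blood emergence, 14 had enough counts in HE AGM and HE YSA, and 4 were higher and 2 lower in HE AGM, near the same shares of all genes. Cd48 rose from 6.57 CPM in a2 to 146 in p1 and from 14.6 in b3 to 104 in p2, and had no counts in c5. Flt3 had 30.5 CPM in c5 and 0 to 1.52 in p1 and p2. Tek, an endothelial receptor, fell past 2-fold from early to late HE in all 3 series, from 152 to 60.4 CPM in the AGM, from 155 to 63.9 in YSA and from 212 to 93.8 in YSP.

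The genes with the most similar pattern over the 9 clusters, by Pearson's r of log2(CPM + 1) among 6011 genes with at least 200 counts, are given as a description over 9 points that share libraries and depth. They were Sufu, Zyx and Pcm1 for Itgb3 (r 0.98, 0.98 and 0.97), Sptssa, Klf6 and Plpp2 for Procr (0.98, 0.95 and 0.95) and Serf1, Ccnd2 and Pdcd4 for Cd24a (0.97, 0.97 and 0.97). For Kit they were Gm15772, Gm10136 and Cetn3 (0.98, 0.97 and 0.94), for Cd44 Akr1c14, mt-Tv and Tbc1d17 (0.97, 0.94 and 0.91), and for Cd47 Gm6029, Gm4963 and Cox4i2 (0.95, 0.91 and 0.90). For Itga2b they were Fig4, Atp1b3 and Xrcc6 (0.90, 0.90 and 0.87), and for Ptprc Thumpd1, Mrpl34 and Mrpl22 (0.96, 0.90 and 0.89).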

How the data were processed

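Long nanopore reads from single mouse cells were analysed. The authors basecalled, trimmed and dechimerised the reads, aligned them to GENCODE transcripts with minimap2 2.26 and counted them with NanoCount. The estimated counts they deposited are not normalized and can be fractional, because reads that fit several transcripts are divided. The deposited TPM values are the same estimates scaled to 1000000 per cell, with no correction for length. Their later filter and normalization are not in the files.

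Cells were grouped by the cluster in their labels, and cells under 17595 counts, 1 median absolute deviation below the median of 38780, were left out, after the study's methods. Counts were summed per group. Estimated counts were rounded for intervals, which are exact Poisson or binomial at 95% and, for ratios, exact conditional binomial. A gene with no counts in a group was set to 3 counts, which also gives the limits quoted for 0. Expected shares at equal depth are hypergeometric. No significance test was run. A transcript fraction was compared where both groups had 50 counts. Sequences came from GENCODE M21, another release than the authors' one, so no coordinates are given. The genes named are the 9 members, the 3 most similar to each and listed genes past 2-fold. Kitl, Pf4, Treml1, Gp5, Gp6 and Gp9 were named after their values were seen, and Ace's similar genes are left out because of its 20 counts. The members and lists were chosen with earlier results of these data known. Marker lists covered endothelium, blood, red cells, megakaryocytes, macrophages, mesenchyme and yolk-sac endoderm. Beside the lists given in the results, the macrophage list summed to 32.1 to 195 CPM per cluster and mesenchyme to 0.719 to 172. Endoderm summed to 3.61 to 28.8 CPM and red cells to 4.87 to 365. The 172 CPM were Dlk1 alone in c5. The 365 CPM were of c3, where the median cell had 0 and the highest, which was kept, 11877 CPM. Of the megakaryocyte list, values are given for single genes, and a listed gene is not reported here. Alternatives covered the cell filter, normalization, runs, depth, stage, reporter and limits. Ratios, intervals and shares were computed with pandas 2.3.3, scipy 1.17.1 and numpy 2.4.6 under Python 3.11.15, and size factors with DESeq2 1.42.0 under R 4.3.3. Figures were drawn with matplotlib 3.10.9.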

Additional observations from a re-analysis of the deposited data

How the results depend on the processing

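The 62 ratios between groups that had enough counts were recomputed under 19 alternatives, wherever a ratio could still be formed on enough counts. This gave 1107 values, and among them 3 of the 31 ratios past 2-fold changed sign. Itga2b in HE YSA over HE YSP was not among them for cells named for Gfi1, with 8 counts and 1. Procr from c4 to c5 was 0.22 in run 1 alone, Itgb3 in HE YSA over HE YSP was -0.060 with YS cells named for Gfi1 alone, and Procr in HE AGM over HE YSA was 0.13 with YS cells of E9.5 alone, which was chosen after seeing the data. The causes were not tested.

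Counts of members past the limit moved as follows. HE AGM over HE YSA, 5, was 3 in runs 2 and 3 alone, at E9.5 and at a 4-fold limit. HE AGM over HE YSP, 4, was 7 at 1.5-fold and 2 at 4-fold. HE YSA over HE YSP, 4, was 2 in run 2 alone and at 4-fold. For c4 over c3, 4, it was 2 in run 3 alone and at 4-fold. For a2 over a1, 2, it was 1 with the limit on the log scale, in runs 2 and 3 alone, at 30000 to 60000 counts and at E10.5, and 0 at 4-fold. For b3 over b2, 1, it was 0 with no limit on library size, without pseudogenes and ribosomal protein genes in the total, with protein-coding transcripts, in run 3 alone, at E10.5 and at 4-fold, 2 in run 2 alone and at 1.5-fold, and 3 at E9.5. For c5 over c4, 3, it was 1 at 4-fold. For p1 over a2, 5, it was 3 in run 1 alone and at 4-fold, 2 in runs 2 and 3 alone, and 0 at E9.5. For p2 over b3, 1, it was 2 at E10.5 and E9.5 and 3 with cells named for Gfi1. For p1 over p2, 2, it was 0 in run 1 alone and at 4-fold, and 1 in runs 2 and 3 alone, at E9.5 and without the cell with most counts in each group, also chosen after seeing the data. Leaving out each run in turn gave 1 to 3 for a2 over a1 (1 without run 2), 0 to 1 for b3 over b2 (0 without run 1) and 0 to 2 for p1 over p2 (0 without run 3).

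The share of Cd47-201 in HE AGM minus HE YSA was 13.3 and 32.3 percentage points in runs 1 and 3 alone, 17.96 at 30000 to 60000 counts and 17.5 as a mean over cells. Minus HE YSP it was 15.8 and 33.6 in runs 1 and 2 alone, 31.1 with estimates of at least 1 count, 17.8 at 30000 to 60000 counts and 18.4 as a mean over cells. The long Cd44 transcripts in HE AGM minus HE YSA were 49.3 in run 1 alone. Retained-intron Kit in HE AGM minus HE YSA was -22.3, -37.3 and 1.07 in runs 1, 2 and 3 alone, and minus HE YSP -16.3 in run 1 alone. At a limit of 200 counts, fractions differed for 1 member in HE AGM over HE YSP and for 0 in the YS populations. The share of HE AGM cells with both integrin chains was 16.3% at 3 counts and 17.3% at equal depth. Fewer cells and counts are part of each single run. No paired analysis was possible because the results come from no test and no label ties a cell of one cluster to a cell of another. Ratios within each run are given in its place.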
